A study of Mus musculus with 6 samples.

Results

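Named ribosomal protein pseudogenes are copies of ribosomal protein genes whose mouse symbol carries the parent gene's name followed by -ps, such as Rpl10a-ps1. Members were chosen by symbol and by their own values in these libraries: every gene whose symbol starts with Rpl or Rps and contains -ps, and which had more than 0 FPKM (sequenced fragments scaled by gene length and library size) in at least 1 of 6 libraries. This gave 121 of the 25576 genes listed in any library, 71 named after a protein of the large ribosomal subunit and 50 after a protein of the small subunit. Each was set beside its parent gene, the gene named before -ps, and all 121 had a parent in the files, 46 parent genes in all. A gene not listed for a library was taken as 0.

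Bulk RNA of mouse spinal cord on the FVB background was sequenced at postnatal day 4 after removal of ribosomal RNA. The SMA group had the genotype mSmn-/-, hSMN22tg/0 and the control group mSmn+/-, hSMN22tg/0, with 3 libraries in each. All 6 libraries therefore carried the hSMN2 transgene, and the controls were heterozygous for the mouse gene, not wild type. Nothing in the labels says that the libraries of a group came from separate animals, and the paper describes bulk sequencing in triplicate with an n of a single unit per group, without saying what the unit is in the sources used here. The 3 libraries of a group may thus not be independent replicates, and p-values measure only the spread between these samples, which may be technical. Values of a group are always given in the order of replicates 1, 2 and 3. Smn1 itself was at 10.4, 8.64 and 11.9 FPKM in libraries labelled control and at 8.48, 9.30 and 11.1 FPKM in those labelled SMA. These ranges overlapped, so the level of Smn1 did not check the labels, and the groups are called by their labels throughout.

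Ribosomal protein genes are transcribed strongly in nearly every cell, and their short spliced messages have been copied back into the genome many times by retrotransposition. Such processed pseudogenes lack introns, usually lack the promoter of the parent, and often keep a sequence so close to the parent's that a short read can match both. A level assigned to such a copy therefore depends on how reads with several matches were shared out, and the settings used for that are not given in the sources used here.

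The sequences below show how close the copies are, for members whose values are described further on. Each line is 90 bases of coding sequence, 5′ to 3′ on the coding strand, from GENCODE M21 transcripts (GRCm38), with bases that differ between parent and copy in capitals. The stretch is the earliest 90-base window with the most differences, which for Rpl10a, with none, is the start of the coding sequence. The first 4 copies show the range from a single difference to several, and Rpl10a-ps1 is the copy that was lower in the SMA libraries.
Rps2: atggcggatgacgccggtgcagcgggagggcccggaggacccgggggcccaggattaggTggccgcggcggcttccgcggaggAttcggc
Rps2-ps13: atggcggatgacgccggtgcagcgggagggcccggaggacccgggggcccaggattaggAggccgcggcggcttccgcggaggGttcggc
Rpl34: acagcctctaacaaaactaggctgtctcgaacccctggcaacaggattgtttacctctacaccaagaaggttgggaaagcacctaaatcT
Rpl34-ps1: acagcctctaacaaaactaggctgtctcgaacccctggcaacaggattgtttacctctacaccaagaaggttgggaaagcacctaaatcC
Rpl35a: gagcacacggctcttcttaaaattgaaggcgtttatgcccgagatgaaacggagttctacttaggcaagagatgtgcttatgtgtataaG
Rpl35a-ps2: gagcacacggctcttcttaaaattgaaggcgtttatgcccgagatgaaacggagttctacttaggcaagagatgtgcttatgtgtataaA
Rpl3: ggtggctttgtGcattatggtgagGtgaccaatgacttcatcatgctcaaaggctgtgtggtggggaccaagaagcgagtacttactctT
Rpl3-ps2: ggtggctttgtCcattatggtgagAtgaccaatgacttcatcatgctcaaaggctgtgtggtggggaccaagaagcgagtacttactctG
Rpl10a: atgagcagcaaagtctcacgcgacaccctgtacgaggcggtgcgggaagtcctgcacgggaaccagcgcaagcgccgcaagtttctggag
Rpl10a-ps1: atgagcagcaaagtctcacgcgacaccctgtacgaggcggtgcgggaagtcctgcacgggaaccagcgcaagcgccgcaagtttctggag
In GRCm38 these stretches lie at chrX:52898588-52898677 (+) for Rps2-ps13, chr6:71124652-71124741 (+) for Rpl34-ps1, chr1:181242165-181242254 (-) for Rpl35a-ps2, chrX:74171606-74171695 (+) for Rpl3-ps2 and chr1:64994515-64994604 (-) for Rpl10a-ps1, all annotated as single-exon processed pseudogenes.

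Over the whole coding sequence, Rpl34-ps1 differed from Rpl34 at 2 bases (T132C and C318G, counted from 1 at the first base of the start codon, parent base first). Rps2-ps13 differed from Rps2 at 7 bases, all 7 at the third position of a codon. Rpl35a-ps2, Rpl35a-ps3, Rpl35a-ps4 and Rpl35a-ps6, on 4 chromosomes, had identical annotated transcripts of 333 bases and shared a single difference from Rpl35a, G156A. Rpl10a-ps1 had 0 differences from the 654 bases of Rpl10a.

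By gene identifier, 120 of the 121 were found in GENCODE M21, all but Rpl31-ps12, whose symbol stands there under another identifier. Of these 120, GENCODE annotated 111 as processed pseudogenes, 5 as transcribed processed pseudogenes and 4 as protein coding (Rpl10-ps3, Rps12-ps3, Rpl9-ps6 and Rpl36a-ps1). In the transcript used, 119 had a single exon. Rpl18-ps1 aligned to only 10.8% of the coding sequence of Rpl18 and was given no identity, and the median identity of the other 119 with the parent's coding sequence was 98.8% (lowest 79.3%). Identity was at least 99% for 53 members and below 95% for 14, and 12 members matched the whole parent coding sequence with no difference. An open reading frame of at least 95% of the parent's length was present in 65 of 120. Among the 92 members aligned without gaps, 331 of 565 differing bases (58.6%) fell on the third codon position.

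For 24 of the 120 members, every 50-base window also occurred in the annotated transcripts of another gene, and 31 had at least 50% of their windows to themselves. Members lay on 20 chromosomes, 13 of them on X. A gene on the same strand overlapped 20 members and a gene on the opposite strand alone overlapped a further 24. The locus given in the files is longer than the annotated pseudogene for 48 members, by more than 1000 bases for 41, among them Rps2-ps10, Rpl35a-ps3, Rpl35a-ps6, Rps12-ps3, Rps12-ps9, Rpl10-ps1, Rps23-ps1, Rpl36a-ps2 and Rpl17-ps8. The libraries were prepared so as to keep strand, but whether strand was used in counting is not given in the sources used here.

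Most members were close to 0 and a few were very abundant. The median over the 121 members of the mean over 6 libraries was 0.324 FPKM, and 85 members were below 1% of the level of their parent. The number of members above 0 was 76, 78 and 80 for the control group and 101, 85 and 93 for the SMA group, so every SMA library listed more members than every control library. Over all genes the same libraries listed 21418, 22161 and 21197 against 22237, 22201 and 22296, with the SMA libraries again above. Above 0 in all 6 libraries were 56 members, while 19 were above 0 in only 1, 22 in SMA libraries only and 7 in control libraries only. As presence above 0 chose the members, these counts are a description and were not tested. The 22 and 7 are given without a share over all genes, so they cannot be read as particular to the members. The members with the lowest highest value, just inside the threshold, were Rpl10-ps2 (at most 0.0258 FPKM), Rpl7a-ps10 (0.0421 FPKM in SMA replicate 3 alone) and Rpsa-ps11 (0.0615 FPKM in control replicate 3 alone). Named copies in GENCODE M21 that the files do not list, such as Rpl10-ps5, Rpl17-ps3 and Rpl30-ps8, count as 0 and lie just outside the threshold. Whether they were at 0 or were not annotated when the values were made cannot be told.

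Control replicate 2 stood apart from the other 5 libraries. Its correlation with them on the log2 scale over tested genes was 0.836 to 0.849, against 0.983 to 0.992 among the other 5. The 20 hepatocyte markers summed to 32328 FPKM there, with Alb, serum albumin, at 15894 FPKM, against sums of 93.9 and 63.3 FPKM in the other controls and 52.3, 115 and 62.0 FPKM in the SMA libraries. The 11 listed erythroid markers summed to 18907 FPKM in control replicate 2 and to 1115 to 1866 FPKM elsewhere, and the 8 neutrophil markers to 460 FPKM and 5.62 to 12.2 FPKM. Neuronal and Hox markers were present in every library: the 12 neuronal markers summed to 1804 FPKM in control replicate 2 and 2205 to 2639 FPKM elsewhere, and the 6 Hox genes of spinal position to 107 FPKM in control replicate 2 and 160 to 197 FPKM elsewhere. The 2 most abundant markers of each of these lists were Alb and Ahsg, Hbb-bs and Hba-a1, S100a8 and S100a9, Meg3 and Snhg11, and Hoxb8 and Hoxc10. Of the neuronal markers, Meg3, Snhg11 and Mnx1 were within the range of the other libraries in control replicate 2, and the others were lowest there. Stmn2 and Tubb3 were at 235 and 178 FPKM there, against 416 to 468 and 323 to 378 FPKM elsewhere. Snap25 and Syt1 were at 73.3 and 50.6 FPKM, against 124 to 144 and 85.0 to 101 FPKM. The part of these transcripts in any result below was not tested, and the main comparisons are given with and without control replicate 2. In bulk tissue, fewer cells of a type and less RNA per cell cannot be told apart.

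The most abundant members were copies of Rps2, Rpl34 and Rpl3. Rps2 encodes a protein of the small subunit, and its copy Rps2-ps10 was at 275, 338 and 256 FPKM in the controls and 296, 295 and 272 FPKM in SMA. The large-subunit copy Rpl34-ps1 was at 204, 220 and 147 FPKM in the controls and 177, 184 and 175 FPKM in SMA. Rps2-ps13 was at 119, 138 and 100 FPKM in the controls and 119, 117 and 116 FPKM in SMA. In all of these the highest control library was replicate 2 and the lowest replicate 3, and the SMA libraries lay between them. Rpl3-ps1 followed at 66.4, 67.1 and 59.4 FPKM in the controls and 66.9, 68.5 and 64.3 FPKM in SMA, again with overlapping groups. Together these 4 members held 78.2% to 81.4% of the summed FPKM of all members in each library.

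**Figure D1:**
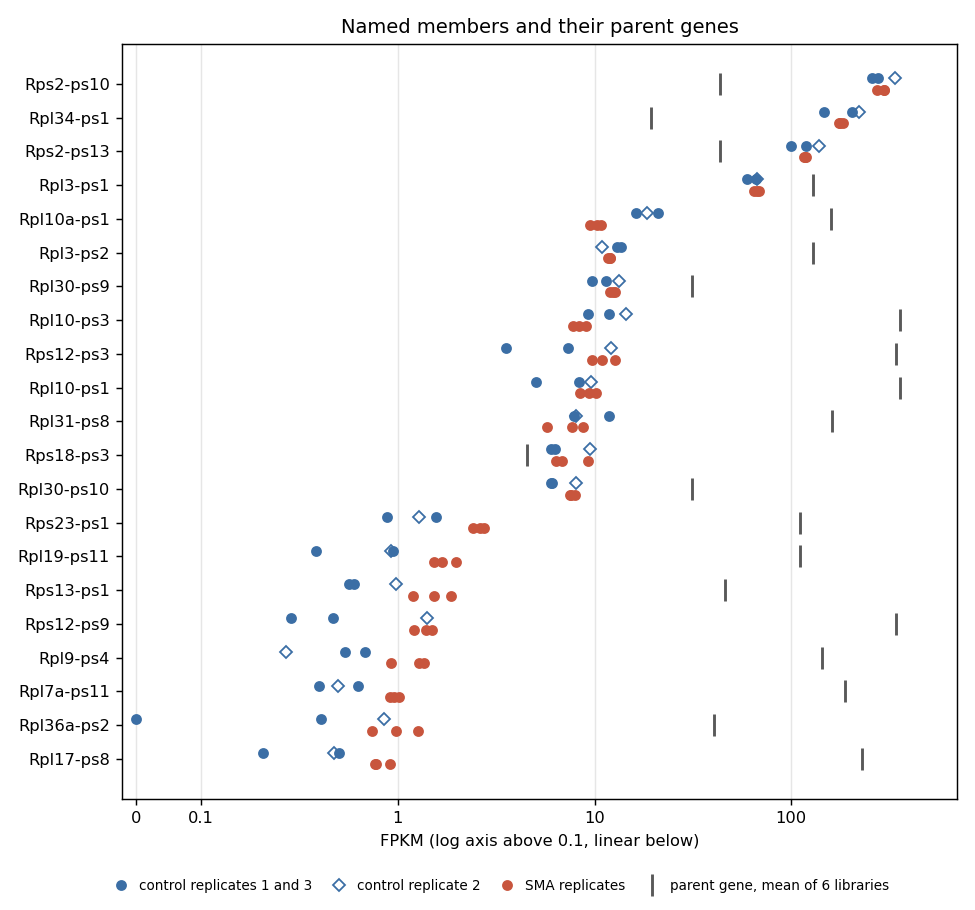
FPKM of the 21 members named by rule, in each library (filled blue circles, control replicates 1 and 3; open diamonds, control replicate 2; red circles, SMA replicates), with the parent's mean over 6 libraries as a grey bar. The axis is logarithmic above 0.1 FPKM; Rps2-ps10, Rpl34-ps1, Rps2-ps13 and Rps18-ps3 lie to the right of their parents, and the other 17 to the left.

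A total of 4 members were above their parent on the FPKM scale, which is per length. Rps2 itself averaged 43.3 FPKM, 8.81% of the sum of Rps2, its 5 members and its 19 other listed copies. Rpl34 averaged 19.3 FPKM, and Rpl34-ps1 was at 954% of it. Rps18, another small-subunit gene, averaged 4.53 FPKM against 7.35 FPKM for Rps18-ps3, but the unnamed copies of Rps18 outweighed both, with Gm11361 alone at 74.8 FPKM. Parent, members and other copies of Rps2 together summed to 476, 573 and 428 FPKM in the controls and 506, 496 and 469 FPKM in SMA, with overlapping groups. Rps2 itself had a log2 fold change of 0.09 with 6 libraries and of 0.21 (adjusted p = 0.413) without control replicate 2. Of the 50-base windows of Rps2-ps10, Rpl34-ps1 and Rps18-ps3, 73.5%, 71.5% and 68.8% were shared with the parent and 3.71%, 0% and 18.9% were found in no other gene. The division between parent and copy is therefore uncertain, less so for Rps18-ps3.

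The Rpl35a copies, named here after their values were seen, show the same uncertainty in its simplest form. The 4 identical transcripts had close values in the controls and less close ones in SMA, from 3.31 to 3.86 FPKM in SMA replicate 1. Rpl35a-ps2 was at 3.24, 3.26 and 2.15 FPKM in the controls and 3.35, 3.65 and 3.98 FPKM in SMA. Rpl35a-ps4 was at the same control values and at 3.86, 3.64 and 3.72 FPKM in SMA, and Rpl35a-ps6 at 3.26, 3.26 and 2.10 FPKM and 3.31, 3.51 and 3.72 FPKM. Each of the 4 was higher in every SMA library than in every control library, but they count as 1 observation, because no 50-base window tells them apart. Their log2 fold changes were 0.24 to 0.30 with 6 libraries and 0.31 to 0.38 without control replicate 2. Rpl35a was at 8.16, 7.20 and 6.12 FPKM in the controls and 9.69, 7.26 and 10.4 FPKM in SMA, where the groups overlapped.

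Across members, closeness to the parent and level went together. The 53 members with at least 99% identity had a median mean level of 1.46 FPKM, the 52 from 95% to 99% a median of 0.0783 FPKM, and the 14 below 95% a median of 0.136 FPKM. Spearman's rho across genes between identity and mean FPKM was 0.66 (n = 119), and that between the share of unique 50-base windows and mean FPKM was -0.62 (n = 120). Genes are not independent replicates, and these members share libraries and, within families, sequence. Members were also chosen for being above 0 FPKM, so close copies that are not listed were left out. Among them were Rpl17-ps3, Rpl10-ps5 and Rpl30-ps8, at 99.6%, 99.5% and 99.1% identity. These values therefore describe listed copies alone and say nothing of copies in general. Members with the long open reading frame had a median of 0.543 FPKM (n = 65) and those without it 0.190 FPKM (n = 55).

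**Figure D2:**
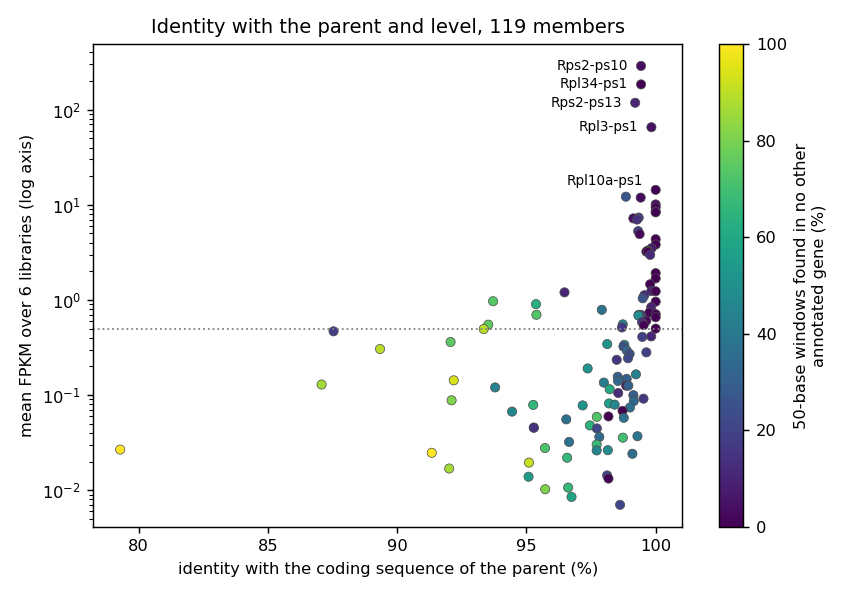
Identity of 119 members with the coding sequence of the parent (x axis, percent) against mean FPKM over 6 libraries (y axis, logarithmic), coloured by the percent of 50-base windows found in no other annotated gene. The dotted line marks the 0.5 FPKM needed for testing; the 5 most abundant members all have at least 99% identity and few unique windows.

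Most tested members did not pass even an unadjusted threshold between libraries labelled SMA and control, and 0 passed an adjusted one with limma. Past the unadjusted threshold, Rpl10a-ps1 was lower in SMA while the groups of its parent overlapped, and some members at low levels, Rps23-ps1 and Rpl19-ps11 among them, were higher. The fit was made with limma on log2(FPKM + 1), a scale that understates the change of low genes, wherever the mean reached 0.5 FPKM. Of the 121 members 51 passed that filter with 6 libraries and 52 without control replicate 2, and a member that is high in 1 group alone can pass through that group. With 6 libraries, 5 members were higher in SMA and 2 lower at an unadjusted p under 0.05 (9.8% and 3.92% of those tested), where 3.4% and 2.39% of all 17088 tested genes were. Without control replicate 2, 13 were higher and 2 lower (25% and 3.85%), where 5.27% and 5.2% of 16574 genes were. Among the 13, Rps12-ps9, Rpl36a-ps2, Rpl27-ps3 and Rpl17-ps8 had a mean under 0.5 FPKM in the remaining controls. These passed the filter through the SMA libraries, so their direction is partly set by it. With 6 libraries the same was true of Rpl9-ps4, at a control mean of 0.497 FPKM. Without SMA replicate 1 or SMA replicate 2 the number higher was 3 (6.38% and 5.77%), where 1.39% and 1.49% of all genes were. The number lower was 1 without control replicate 1 (1.85%, against 3.35% of all genes) and without SMA replicates 1, 2 and 3 in turn (2.13%, 1.92% and 2.04%, against 1.79%, 0.83% and 0.731%). At an adjusted p under 0.05 limma called 0 members in either comparison, with smallest adjusted p-values of 0.683 and 0.176.

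Overlap between the groups gives a second description. Every SMA library was above every control library for 12 tested members and below for 2 (23.5% and 3.92%), against 10.3% and 6.67% of all tested genes. The 12 include the 4 identical Rpl35a copies, and with these counted once 9 of 48 (18.8%) were above. This held for 20 and 3 members without control replicate 2 (38.5% and 5.77%), against 14.2% and 13.9%, and for 17 of 49 above (34.7%) with the Rpl35a copies counted once. These counts include members that passed the filter through the SMA libraries, for which SMA above is partly set by it. Among them were Rpl17-ps8 and Rpl9-ps4, at control means of 0.393 and 0.497 FPKM with 6 libraries, and Rps12-ps9 and Rpl36a-ps2 without control replicate 2. Without control replicate 1 or 3, 29.6% and 26.4% were above, against 21.6% and 20.7% of all tested genes. Below were 5.56% and 9.43%, against 12% and 13.5%. Without SMA replicates 1, 2 and 3 in turn, 25.5%, 25% and 30.6% were above, against 14.8%, 14.1% and 13.5%. More above than below was also seen in other pseudogenes, so it is not particular to the members. With 6 libraries, 15.7% of other tested processed pseudogenes were above and 3.48% below. Of tested pseudogenes with -ps in a symbol that does not start with Rpl or Rps, 16.1% and 0% were. Without control replicate 2 the shares above were 22.4% and 21.8%. All 7 members past the unadjusted threshold with 6 libraries were also past it without control replicate 2.

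Rpl10a-ps1 had the lowest log2 fold change of the tested members. It was at 20.9, 18.4 and 16.3 FPKM in the controls and 10.3, 10.7 and 9.48 FPKM in SMA, so each SMA library was well below the lowest control. The log2 fold change was -0.80 (SE 0.12) with 6 libraries and -0.80 (SE 0.12) without control replicate 2, with adjusted limma p-values of 0.683 and 0.176. The parent Rpl10a, a large-subunit protein gene, was at 169, 166 and 146 FPKM in the controls and 165, 165 and 149 FPKM in SMA, with overlapping groups and a log2 fold change of -0.0033 with 6 libraries and 0.02 without control replicate 2. The log2 ratio of copy to parent was lower in SMA by a difference of -0.80 (exact permutation p = 0.1) with 6 libraries and of -0.82 (exact permutation p = 0.1) without control replicate 2, where 0.1 is the smallest p that either design allows. Since the annotated Rpl10a-ps1 is the same as the parent's coding sequence and has 0% unique 50-base windows, reads of the copy and of that sequence cannot be told apart, and the level assigned to the copy is uncertain. Parent, members and the other listed copy together gave 190, 184 and 162 FPKM in the controls and 176, 176 and 158 FPKM in SMA, with overlapping groups.

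**Figure D3:**
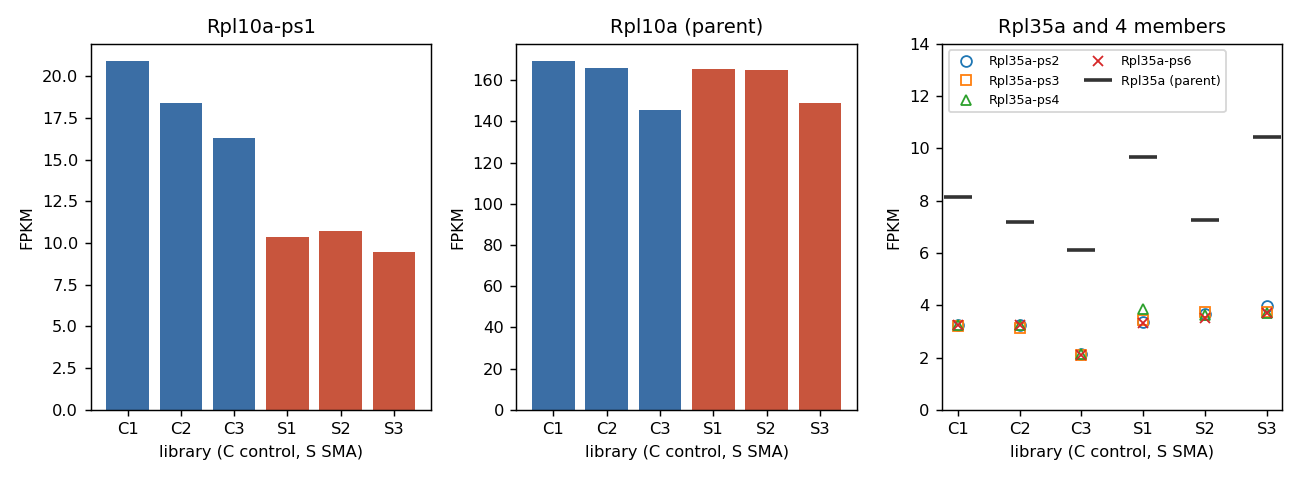
FPKM in each library (C, control; S, SMA; numbers are replicates) of Rpl10a-ps1 and its parent Rpl10a as bars from 0, and of Rpl35a (black dashes) and 4 identical copies (symbols). Rpl10a-ps1 is at 9.48 to 10.7 FPKM in SMA and 16.3 to 20.9 FPKM in the controls while Rpl10a overlaps between groups, and the 4 Rpl35a copies nearly coincide in the controls and spread more in SMA.

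The other member lower in SMA was Rpl10-ps3, annotated as protein coding and identical to the coding sequence of Rpl10, a large-subunit gene. It was at 11.8, 14.4 and 9.26 FPKM in the controls and 9.03, 8.30 and 7.77 FPKM in SMA. The groups did not overlap, though control replicate 3 and SMA replicate 1 were close. The log2 fold change was -0.44 (SE 0.16, adjusted p = 0.683) with 6 libraries and -0.29 (SE 0.12, adjusted p = 0.458) without control replicate 2. Its unadjusted p was over the threshold without control replicate 1 and without each SMA replicate. Rpl10-ps1, a second identical copy, went the other way, at 8.38, 9.63 and 5.05 FPKM in the controls and 10.1, 9.33 and 8.42 FPKM in SMA. Its groups overlapped with 6 libraries and not without control replicate 2, where the log2 fold change was 0.45 (SE 0.18, adjusted p = 0.454) against 0.28 with 6 libraries. Rpl10 was at 353, 445 and 334 FPKM in the controls and 353, 350 and 314 FPKM in SMA.

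The 5 members higher in SMA with 6 libraries all averaged below 2 FPKM. Rps23-ps1, a copy of a small-subunit gene, was at 1.57, 1.27 and 0.876 FPKM in the controls and 2.63, 2.74 and 2.41 FPKM in SMA. Its log2 fold change was 0.69 (SE 0.16, adjusted p = 0.683) with 6 libraries and 0.71 (SE 0.17, adjusted p = 0.304) without control replicate 2. It aligned to 98.4% of the coding sequence of Rps23 with no difference, and it overlaps an exon of Gm5148 on the opposite strand. Rps23 was at 117, 129 and 96.9 FPKM in the controls and 115, 103 and 107 FPKM in SMA, with overlapping groups.

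Rpl19-ps11 was at 0.949, 0.920 and 0.385 FPKM in the controls and 1.98, 1.52 and 1.68 FPKM in SMA, with a log2 fold change of 0.65 (SE 0.19, adjusted p = 0.683) and, without control replicate 2, of 0.73 (SE 0.19, adjusted p = 0.313). It overlaps an exon of Gm27288 on the same strand. Rps13-ps1 was at 0.599, 0.977 and 0.566 FPKM in the controls and 1.19, 1.86 and 1.53 FPKM in SMA, with a log2 fold change of 0.56 (SE 0.18, adjusted p = 0.683) and, without control replicate 2, of 0.67 (SE 0.16, adjusted p = 0.307). For both, every SMA library lay above every control library. Rpl9-ps4 was at 0.685, 0.270 and 0.538 FPKM against 1.28, 1.35 and 0.922 FPKM, and its log2 fold change was 0.55 with 6 libraries and 0.43 without control replicate 2. Rpl7a-ps11 was at 0.397, 0.497 and 0.626 FPKM against 0.912, 0.961 and 1.01 FPKM, with a log2 fold change of 0.38 either way. The unadjusted p was over the threshold for Rps13-ps1 without control replicate 3, SMA replicate 2 or SMA replicate 3, for Rpl9-ps4 without SMA replicate 1 or 2, and for Rpl7a-ps11 without control replicate 1 or any SMA replicate.

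Their parents Rpl19, Rps13, Rpl9 and Rpl7a, at means of 111, 46.1, 143 and 188 FPKM, had log2 fold changes of 0.07, 0.04, -0.11 and -0.16 with 6 libraries and of 0.23, 0.10, -0.04 and -0.09 without control replicate 2, each with overlapping groups.

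A further 8 members were past the unadjusted threshold without control replicate 2 and not with it, all 8 higher in SMA: Rpl10-ps1, described above, 5 others named by rule, and Rpl35a-ps4 and Rpl27-ps3, which are outside the rule and are named after their values were seen. Of these, Rps12-ps9, Rpl36a-ps2, Rpl27-ps3 and Rpl17-ps8 had a mean under 0.5 FPKM in control replicates 1 and 3. They passed the filter through the SMA libraries, so their sign is partly set by it. Rps12-ps3, annotated as protein coding and identical to the coding sequence of the small-subunit gene Rps12, was at 7.34, 12.1 and 3.53 FPKM in the controls and 11.0, 12.7 and 9.67 FPKM in SMA. Control replicate 2 lay among the SMA values, and the log2 fold change was 0.60 (SE 0.36, adjusted p = 0.683) with it and 0.97 (SE 0.24, adjusted p = 0.307) without it. Rps12-ps9, another copy, was at 0.469, 1.41 and 0.286 FPKM against 1.49, 1.39 and 1.20 FPKM, with log2 fold changes of 0.51 with 6 libraries and 0.78 without control replicate 2. The parent Rps12 was at 322, 405 and 237 FPKM in the controls and 375, 357 and 342 FPKM in SMA, with log2 fold changes of 0.19 with 6 libraries and 0.37 (SE 0.12, adjusted p = 0.393) without control replicate 2.

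Rpl36a-ps2, absent from control replicate 3, was at 0.408 and 0.855 FPKM in the other controls and 0.741, 0.980 and 1.27 FPKM in SMA, with log2 fold changes of 0.53 and, without control replicate 2, 0.74. Its parent Rpl36a, at 39.4, 52.3 and 24.6 FPKM against 45.4, 42.9 and 39.1 FPKM, had log2 fold changes of 0.19 and 0.43, and Ddah1, the gene it lies in, of 0.05 with 6 libraries. Rpl30-ps10 was at 6.10, 8.02 and 5.98 FPKM against 7.52, 7.98 and 7.63 FPKM, and Rpl17-ps8 at 0.501, 0.473 and 0.205 FPKM against 0.909, 0.775 and 0.766 FPKM, with log2 fold changes of 0.19 and 0.39 with 6 libraries and 0.31 and 0.43 without control replicate 2. Rpl27-ps3 was at 0.462, 0.418 and 0 FPKM against 1.30, 1.39 and 0.381 FPKM, where the groups overlapped, with log2 fold changes of 0.62 and 0.70.

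Of the 12 most abundant members, 10 had overlapping groups with 6 libraries, all but Rpl10a-ps1 and Rpl10-ps3. Of all tested genes, 10.3% did not overlap with SMA above and 6.67% with SMA below. The log2 fold changes of Rps2-ps10, Rpl34-ps1, Rps2-ps13 and Rpl3-ps1 were -0.0022, -0.07, -0.0097 and 0.05 with 6 libraries and 0.11, 0.04, 0.10 and 0.08 without control replicate 2. Rpl3-ps2 was at 13.0, 10.9 and 13.6 FPKM in the controls and 11.9, 11.9 and 11.8 FPKM in SMA. Rpl30-ps9 was at 11.4, 13.3 and 9.68 FPKM against 12.4, 12.7 and 11.9 FPKM, and its parent Rpl30 at 41.0, 39.6 and 25.1 FPKM against 26.8, 27.9 and 27.1 FPKM. Without control replicate 2 the groups no longer overlapped for Rpl3-ps2 (-0.15), with SMA below, and for Rpl30-ps9 (0.21), Rps12-ps3, Rpl10-ps1 and Rps18-ps3, with SMA above. Of all tested genes, 13.9% then did not overlap with SMA below and 14.2% with SMA above.

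Rpl31-ps8, identical to the coding sequence of Rpl31, was at 11.9, 8.08 and 7.86 FPKM against 8.74, 7.72 and 5.74 FPKM, with log2 fold changes of -0.29 and, without control replicate 2, -0.36. Rps18-ps3 was at 6.33, 9.43 and 5.99 FPKM against 6.34, 9.21 and 6.80 FPKM, with log2 fold changes of 0.04 and 0.22.

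The sign of the log2 fold change differed with level, in part through the filter. All 26 tested members with a mean below 2 FPKM had a positive log2 fold change with 6 libraries (median 0.37), against 12 of the 25 at or above 2 FPKM (median -0.0022), or 9 of 22 with the identical Rpl35a copies counted once. Of the 26, 10 had a control mean under 0.5 FPKM and passed the filter through the SMA libraries, so their sign is partly set by it, and the 16 with both group means at 0.5 FPKM or more were all positive (median 0.24). Of all 3660 tested genes with a mean below 2 FPKM, 45.9% had a positive log2 fold change, and 49.7% of the 2999 with both group means at that level. At any level, 74.5% of tested members were positive with 6 libraries. The shares were 65.2% for other processed pseudogenes, 64.3% for other named pseudogenes and 58% for all genes. Without control replicate 2, 22 of the 25 low members still tested were positive (median 0.33). Of the 25 at or above 2 FPKM, 16 were then positive (median 0.082), with the identical Rpl35a copies counted separately. The split at 2 FPKM was made after the values were seen and was not tested. With 6 libraries, groups did not overlap, with SMA above, for 8 of the 26, against 6.99% of all tested genes below 2 FPKM. Of the 16 with both group means at 0.5 FPKM or more, this held for 5, against 6.77% of the 2999. Among the 25 at or above 2 FPKM it held for the 4 Rpl35a copies, which count as 1. Of all tested genes at or above 2 FPKM, it held for 11.2%.

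**Figure D4:**
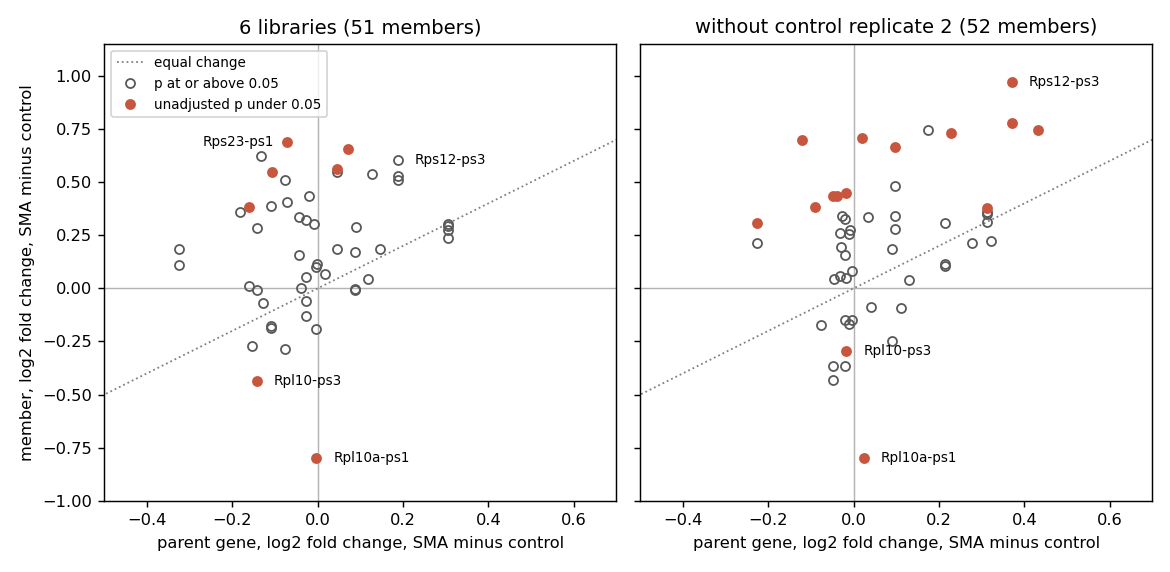
Log2 fold change (SMA minus control, on log2(FPKM + 1)) of each tested member (y axis) against that of its parent gene (x axis), with 6 libraries (left, 51 members) and without control replicate 2 (right, 52 members); filled red points have an unadjusted limma p under 0.05. Rpl10a-ps1 lies at -0.80 in both panels with its parent near 0, and most filled points lie above the dotted line of equal change.

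Set beside the parents, 35 of 51 tested members had a log2 fold change above that of their parent with 6 libraries, and 34 of 52 without control replicate 2. The 51 include the 10 members with a control mean under 0.5 FPKM, whose sign is partly set by the filter. Across the 51 members, Pearson's r between the 2 changes was 0.23, a description across genes that share parents and libraries. The ratio of member to parent could be tested for 20 of the 21 named members, all but Rpl36a-ps2. Some of these were named for their differences and others for their level. For Rps2-ps10 the log2 ratio to Rps2 differed by -0.09 with 6 libraries and -0.10 without control replicate 2, and for Rpl30-ps9 and Rpl30-ps10 the ratios to Rpl30 differed by 0.44 and 0.51 with 6 libraries and 0.44 and 0.53 without it (exact permutation p = 0.1 in each case, the smallest possible). Rpl30-ps10 was itself named for its unadjusted p without control replicate 2. The ratio of Rps2-ps13 to Rps2 overlapped between groups (-0.097 with 6 libraries, exact permutation p = 0.3).

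The 70 members below the filter with 6 libraries reached at most 1.59 FPKM in any library (Rps12-ps26). Of these, 19 were above 0 in a single library and 13 in all 6. Every SMA library was above every control library for 6 of them and below for 0, against 5.87% and 2.04% of the 8488 untested genes.

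Other gene groups give the setting. Of the 231 other named pseudogenes 56 were tested with 6 libraries, with 4 higher and 0 lower at an unadjusted limma p under 0.05 and a median log2 fold change of 0.11, and 6 higher and 0 lower of 55 without control replicate 2. Of the 51 tested members the median was 0.19, and over all tested genes 0.04. The medians were 0.04, 0.26 and 0.0016 without control replicate 2. The 460 tested of 1780 other processed pseudogenes had 45 higher and 10 lower (9.78% and 2.17%), and without control replicate 2 66 higher and 16 lower of 456.

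All 79 cytosolic ribosomal protein genes were tested, and 1 was higher and 2 lower with 6 libraries, against 9 and 2 without control replicate 2. Leaving out control replicate 3 instead gave 1 higher and 10 lower, and the median log2 fold change went from -0.03 with 6 libraries to 0.04 and -0.14 in these cases. The highest of them, Rpl10 and Rps26, had means of 358 and 357 FPKM. The gene that was higher with 6 libraries was Rpl29, named here after its values were seen, at 1.74, 2.11 and 2.26 FPKM in the controls and 4.42, 4.41 and 4.43 FPKM in SMA, with a log2 fold change of 0.84 (SE 0.12, adjusted p = 0.683) and, without control replicate 2, of 0.86 (SE 0.13, adjusted p = 0.180). It is the parent of 1 member, Rpl29-ps2, and of 19 unnamed copies that held 97.3% of the family's sum. That sum was 131, 128 and 105 FPKM in the controls and 130, 124 and 124 FPKM in SMA, with overlapping groups. Its log2 fold change was 0.05 with 6 libraries and 0.09 without control replicate 2. Of the 8 listed ribosomal protein paralogs, genes that encode variant proteins, 6 were tested, Rpl36al and Rps27l being the most abundant, with 2 higher and 1 lower with 6 libraries and 2 higher and 2 lower without control replicate 2.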

How the data were processed

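The deposited files give FPKM per gene, which the authors made with HISAT2 on mm10 and Cufflinks (versions not given). Values were used as deposited, and a gene absent from a file counts as 0. Low values were not whole multiples of a step, so reads per library were not recovered and the precision of low values is unknown. Members and lists were chosen with earlier results of these data known. limma 3.58.1 (R 4.3.3, eBayes with trend, two-sided, Benjamini-Hochberg over all genes tested) compared the groups on log2(FPKM + 1) at a mean of at least 0.5 FPKM, with 6 libraries and without control replicate 2, and was tested on simulated data. Ratios to the parent were compared by an exact two-sided permutation test, which with 3 against 3 libraries cannot go below 0.1. Named by rule are the 12 most abundant tested members, at most 10 with the smallest unadjusted p under 0.05 in each comparison, and the 3 largest differences each way without overlap. Copies were aligned with Biopython 1.88 to GENCODE M21 transcripts (GRCm38), and family copies found with BLAST+ 2.17.0. Alternatives were the pseudocount, the filter, scaling, a replicate block and each library left out. No genome sequence was at hand, so windows were compared among annotated transcripts alone.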

Additional observations from a re-analysis of the deposited data

How the results depend on the processing

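Against 5 of 51 members higher in SMA (9.8%, all genes 3.4%), there were 13 of 121 with no filter on low FPKM (10.7%, all genes 3.45%), 3 of 33 with a minimum mean of 1 FPKM (9.09%, all genes 3.38%) and 11 of 51 with quantile normalization (21.6%, all genes 3.74%), and 3 to 13 with each library left out. Members lower numbered 2, and 1 to 3 with each library left out. The members' median log2 fold change was 0.19, 0.36 with a pseudocount of 0.1, 0.080 with no filter and 0.11 with a minimum mean of 1 FPKM. Of the 26 members below 2 FPKM, 24 were positive with a pseudocount of 0.1 (median 0.98) and 24 with median ratio scaling (median 0.34), against 26 (median 0.37). Over all genes, 581 were higher, against 882 with no filter, 338 with the same summed FPKM and 214 to 1040 with each library left out, and 409 were lower, against 125 to 862. Their median was 0.04, -0.0048 with median ratio scaling, and 0.0016 to 0.065 with each library left out.

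With the replicate block, 356 genes were higher and 303 lower, and 4 members were higher and 2 lower. Libraries with the same number correlated at -0.037, 0.0161 and 0.0766 in their deviations from the group mean over tested genes. Control replicate 2, which stood apart, enters the mean of every control, so these values cannot show whether libraries were paired.

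The sign turned with the same summed FPKM for Rps2-ps10 (0.021), Rps2-ps13 (0.014) and Rpl10a (0.020), with quantile normalization for Rps2-ps10 (0.047) and Rpl10a (0.023), and with median ratio scaling for Rpl3-ps1 (-0.0074), Rps18-ps3 (-0.010) and Rps13 (-0.014). With each library left out, log2 fold changes that turned ran from -0.085 to 0.11 for Rps2-ps10, -0.24 to 0.043 for Rpl34-ps1, -0.13 to 0.10 for Rps2-ps13, -0.0045 to 0.082 for Rpl3-ps1 and -0.10 to 0.22 for Rps18-ps3. Among parents they ran from -0.011 to 0.21 for Rps2, -0.44 to 0.10 for Rpl34, -0.088 to 0.0090 for Rpl3, -0.070 to 0.046 for Rpl10a, -0.014 to 0.37 for Rps12, -0.14 to 0.32 for Rps18, -0.18 to 0.020 for Rps23, -0.11 to 0.23 for Rpl19, -0.059 to 0.098 for Rps13 and -0.10 to 0.43 for Rpl36a. Ratios ran from -0.12 to 0.20 for Rpl34-ps1, -0.14 to 0.086 for Rpl3-ps2 and -0.37 to 0.16 for Rps18-ps3. The cause was not tested. Rpl10a-ps1, Rps23-ps1 and Rpl19-ps11 kept their direction and an unadjusted p under 0.05 under every alternative run. Rpl9-ps4 and Rpl7a-ps11 fell below the filter of a minimum mean of 1 FPKM and have no value there.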
